A study of Mus musculus with 45 samples.

Results

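The endoplasmic reticulum (ER) chaperones and XBP1 targets examined here were 10 genes, Hspa5, Hsp90b1, Calr, Pdia4, Dnajb9, Sdf2l1, Creld2, Herpud1, Edem1 and Xbp1. They were taken by gene symbol from a table of 28454 genes, each of the 10 symbols matched 1 row, and all 10 passed the filter on low counts in every comparison. mRNA was sequenced from 45 cultures of mouse mammary tumour cells, with 3 cultures for each line and medium. MYAZ16.1e, MYAZ12.3i and MYAZ6.6g (the MYAZ subtype) were isolated from mammary tumours of MMTV-cMYC mice, in which a mammary tumour virus promoter drives the Myc transgene, and Myc310 came from a mouse of the same model that bore multiple tumours. LM1, LM2 and LM3 (the LM subtype) were recovered from lungs after Myc310 cells had been placed in the mammary fat pad, and LM1-LM, LM2-LM and LM3-LM (the LM-LM subtype) from lungs after the same was done with LM1 cells, so that all LM and LM-LM lines descend from 1 line. By the labels, which give 1 protocol for all samples, cells were seeded at 250000 per well in serum-containing medium with glutamine, insulin, hydrocortisone and EGF, and the medium was replaced 24 h later by control medium or medium without cysteine and cystine for 6 h. The study's methods give the cystine-free medium, and possibly the replacement itself, for 4 lines alone, namely LM1, LM1-LM, Myc310 and MYAZ16.1e. These 4 lines were sampled in both media, the others in control medium. A further line in control medium, MYAZ12.3i NDI1, is not among those the methods list as seeded. It carries the name of a yeast mitochondrial NADH dehydrogenase, and its construction is not given in the sources used here.

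Proteins that enter the secretory pathway fold in the ER with the help of chaperones and of enzymes that make disulphide bonds, and misfolded ones are sent back to the cytosol for breakdown, a route called ER-associated degradation (ERAD). Membrane sensors answer a load of unfolded protein. IRE1 removes an intron from Xbp1 mRNA so that it encodes an active transcription factor, ATF6 is cut to release another, and PERK phosphorylates the translation factor eIF2alpha, which favours translation of ATF4. Lack of an amino acid reaches eIF2alpha and ATF4 through another kinase, GCN2, so a rise of ATF4 targets alone does not tell the routes apart. The 10 genes served to ask how far the chaperones and the XBP1 targets moved when cystine was withdrawn. The counts are per gene and do not separate spliced from unspliced Xbp1 mRNA.

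Library totals ranged from 19517859 to 29019988 counts, and those of deprived cultures (20659446 to 28188741) lay inside this range. Of the markers of a mammary epithelial origin, Krt8 (223 to 1747 CPM, the count relative to a scaled library total, over the 45 libraries) and Krt18 (96.7 to 552 CPM) were present, while Epcam and Cdh1 stayed at or below 0.829 and 0.290 CPM. Markers of other cell types were in part present. Of the leukocyte list, 7 of 10 genes were found, with Ptprc and Lyz2 at or below 0.239 CPM but Cd14 at 13.9 to 58.0 CPM and Cd68 at 2.77 to 18.4 CPM. The summed leukocyte list was higher without cystine in each of the 4 deprived lines, at 49.2 to 69.6 CPM against 30.3 to 43.9 CPM in control cultures (scaled by library total), and Cd14 had means of 21.5 CPM in control and 50.1 CPM in deprived LM1 cultures. Of the endothelial list (8 of 10 found) Eng reached 196 CPM, of the fibroblast list (10 of 10) Col3a1 202 CPM, and of the alveolar list (6 of 8) Hopx 5.82 CPM, while Cdh5, Dcn and Sftpc stayed at or below 0.725, 0.146 and 0.0784 CPM. The summed endothelial list was lower without cystine in LM1 (129 to 135 CPM against 171 to 177) and LM1-LM and higher in MYAZ16.1e (8.99 to 11.4 CPM against 7.99 to 8.75). The fibroblast list was lower in LM1 and LM1-LM (24.9 to 27.1 CPM against 56.8 to 63.1 in LM1-LM) and higher in MYAZ16.1e (up to 12.2 CPM against 7.63 to 10.3) and Myc310 (2.64 to 2.76 CPM against 1.76 to 2.19). The summed alveolar list did not exceed 2.55 CPM in these lines. The mammary epithelial list, led by Krt8, was higher without cystine in all 4 lines, for example 1300.4 to 1326 CPM against 1098 to 1129 CPM in LM1. The part of these markers in the results below was not tested. CPM values below are relative to library totals that were scaled over all 45 libraries. Fold changes came from edgeR fits with scaling factors of their own, and every adjusted p is that of edgeR (quasi-likelihood, Benjamini-Hochberg over all genes tested). Since the 3 cultures of a group came from 1 line, p-values of the deprivation and NDI1 fits measure the spread between cultures. The library-level fits by subtype pool cultures of several lines, so their spread also holds differences between lines. In these bulk samples fewer cells that express a gene and less RNA per cell cannot be told apart.

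The promoters are shown first because Hspa5, which rose without cystine, holds the same sequence element as Hsp90b1 and Calr, which fell. The ER stress response element (ERSE, CCAAT, 9 bases of any kind, then CCACG) is the best-known binding site of ATF6 with the factor NF-Y, and XBP1 also acts on it. Both strands of the RefSeq windows on build GRCm38.p6 were searched, from 250 bases before to 50 after each gene's start, for ERSE, for ERSE-II (ATTGG, 1 base of any kind, CCACG), for the XBP1-binding core (UPRE, TGACGTG followed by G or A) and for the C/EBP-ATF core bound by ATF4 heterodimers (TGATG, any base, AA). All 10 genes had a window. ERSE was present in 39 of 32851 windows (0.119%), among them those of Hspa5, Hsp90b1, Calr and Creld2. ERSE-II was present in 12 windows (0.0365%), including that of Herpud1. UPRE was found in 367 windows (1.12%), including that of Hspa5, and the C/EBP-ATF core in 1304 (3.97%), including that of Herpud1. The matched stretches read as follows, 5′ to 3′ on each gene's own strand, with every match in capitals. A reverse ERSE match shows CGTGG first and ATTGG last.
Hspa5 UPRE core (chr2:34771913-34771960, plus strand): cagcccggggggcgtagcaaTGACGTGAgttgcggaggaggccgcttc
Hspa5 ERSE (chr2:34772020-34772048, plus strand): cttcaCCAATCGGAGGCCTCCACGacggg
Hsp90b1 ERSE, forward then reverse (chr10:86705513-86705676, minus strand): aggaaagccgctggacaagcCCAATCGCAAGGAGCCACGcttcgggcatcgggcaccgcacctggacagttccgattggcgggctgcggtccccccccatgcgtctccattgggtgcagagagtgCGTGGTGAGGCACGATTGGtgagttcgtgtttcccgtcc
Calr ERSE, reverse (chr8:84847055-84847113, minus strand): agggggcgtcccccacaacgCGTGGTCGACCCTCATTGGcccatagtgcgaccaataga
Creld2 ERSE, reverse (chr15:88819500-88819558, plus strand): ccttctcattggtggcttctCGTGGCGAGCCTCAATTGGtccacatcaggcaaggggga
Herpud1 C/EBP-ATF core, reverse, then ERSE-II (chr8:94386297-94386407, plus strand): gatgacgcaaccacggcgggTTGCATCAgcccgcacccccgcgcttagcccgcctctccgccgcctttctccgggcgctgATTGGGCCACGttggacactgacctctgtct

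Counted from the RefSeq start, the ERSE of Hspa5 covered positions -65 to -47, those of Hsp90b1 -212 to -194 and -107 to -89, that of Calr -162 to -144 and that of Creld2 -126 to -108. The Hspa5 ERSE lies within the first exon of a longer GENCODE M21 transcript model of the gene, and a stretch of at most 30 bases is therefore printed for it. The windows of Pdia4, Dnajb9, Sdf2l1, Edem1 and Xbp1 held none of the 4 motifs. For Dnajb9 the window (chr12:44210019-44210318, minus strand) lies wholly within the GENCODE span of the gene (44205559-44210326). Bases before its GENCODE start were therefore not searched. With 1 of the 10 fixed ERSE letters allowed to differ, a search added after the values were seen, 494 windows (1.5%) matched, and Pdia4 and Herpud1 joined the list. A match is a description of the letters in this window and no evidence of binding.

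**Figure D1:**
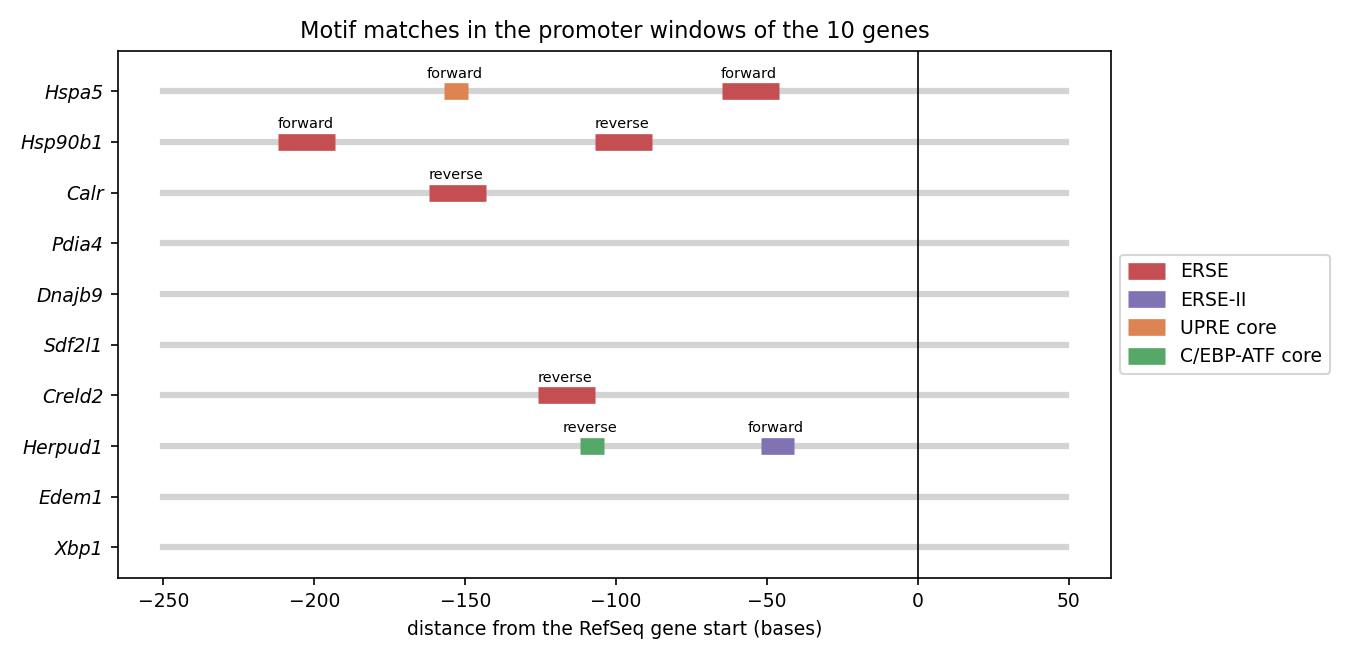
Motif matches in the promoter windows of the 10 genes. The x axis gives the distance in bases from the RefSeq gene start (vertical line), each grey bar is 1 window, coloured blocks are matches and the words above them give the strand relative to the gene. 5 of the 10 windows hold a match, and the ERSE blocks sit in Hspa5, Hsp90b1, Calr and Creld2.

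In control medium the 10 genes spanned a wide range of levels per kilobase of exon. Over the 10 lines the medians were 336 CPM per kb for Calr, the calcium-binding lectin chaperone calreticulin, 318 for Hsp90b1, the ER member of the HSP90 family (GRP94), and 234 for Hspa5, the ER HSP70 chaperone BiP that also holds the stress sensors inactive. Pdia4, a protein disulphide isomerase, stood at 82.7 CPM per kb, Sdf2l1, a component of ER chaperone complexes, at 48.8 and Creld2, an ER-resident disulphide isomerase-like protein, at 40.9. Edem1, which marks misfolded glycoproteins for ERAD, had a median of 18.8 CPM per kb, Herpud1, a membrane scaffold of the ERAD machinery, 14.9, Xbp1 itself 12.8 and Dnajb9, a J-domain cochaperone of BiP (ERdj4), 3.51. In each of the 4 lines that were deprived, Calr was the highest of the 10 per kb in control medium and Hspa5 the highest without cystine. In LM1, Hspa5 went from 217 to 652 CPM per kb while Calr went from 327 to 224.

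Cystine deprivation split the 10 genes. Hspa5, Dnajb9, Herpud1 and Xbp1 rose in all 4 lines, Calr, Sdf2l1, Pdia4, Hsp90b1 and Edem1 fell in all 4, and Creld2 fell in MYAZ16.1e and LM1-LM. In MYAZ16.1e 4 of the 10 were higher and 6 lower (53.7% of 13400 tested genes were called, 26.6% higher and 27.1% lower). In Myc310 4 were higher and 5 lower (66.8% called, 32.8% higher and 33.9% lower). LM1 had 4 and 5 (71.1% called, 35.8% and 35.3%), and LM1-LM had 4 and 6 (72.4% called, 36.5% and 35.9%). Calls in 1 direction in all 4 lines covered 19.3% of tested genes for higher and 19% for lower, against 4 and 5 of these 10. Calls were thus frequent among all genes. The 4 genes that rose did so by over 2-fold in Myc310, LM1 and LM1-LM, as 6.93%, 9.06% and 9.76% of tested genes did, and Herpud1 and Xbp1 also in MYAZ16.1e, as 3.78% did. The median log2 change of the 10 was -0.16, -0.06, -0.09 and -0.13, in the order MYAZ16.1e, Myc310, LM1, LM1-LM, while that of all tested genes lay between -0.0128 and 0.

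**Figure D2:**
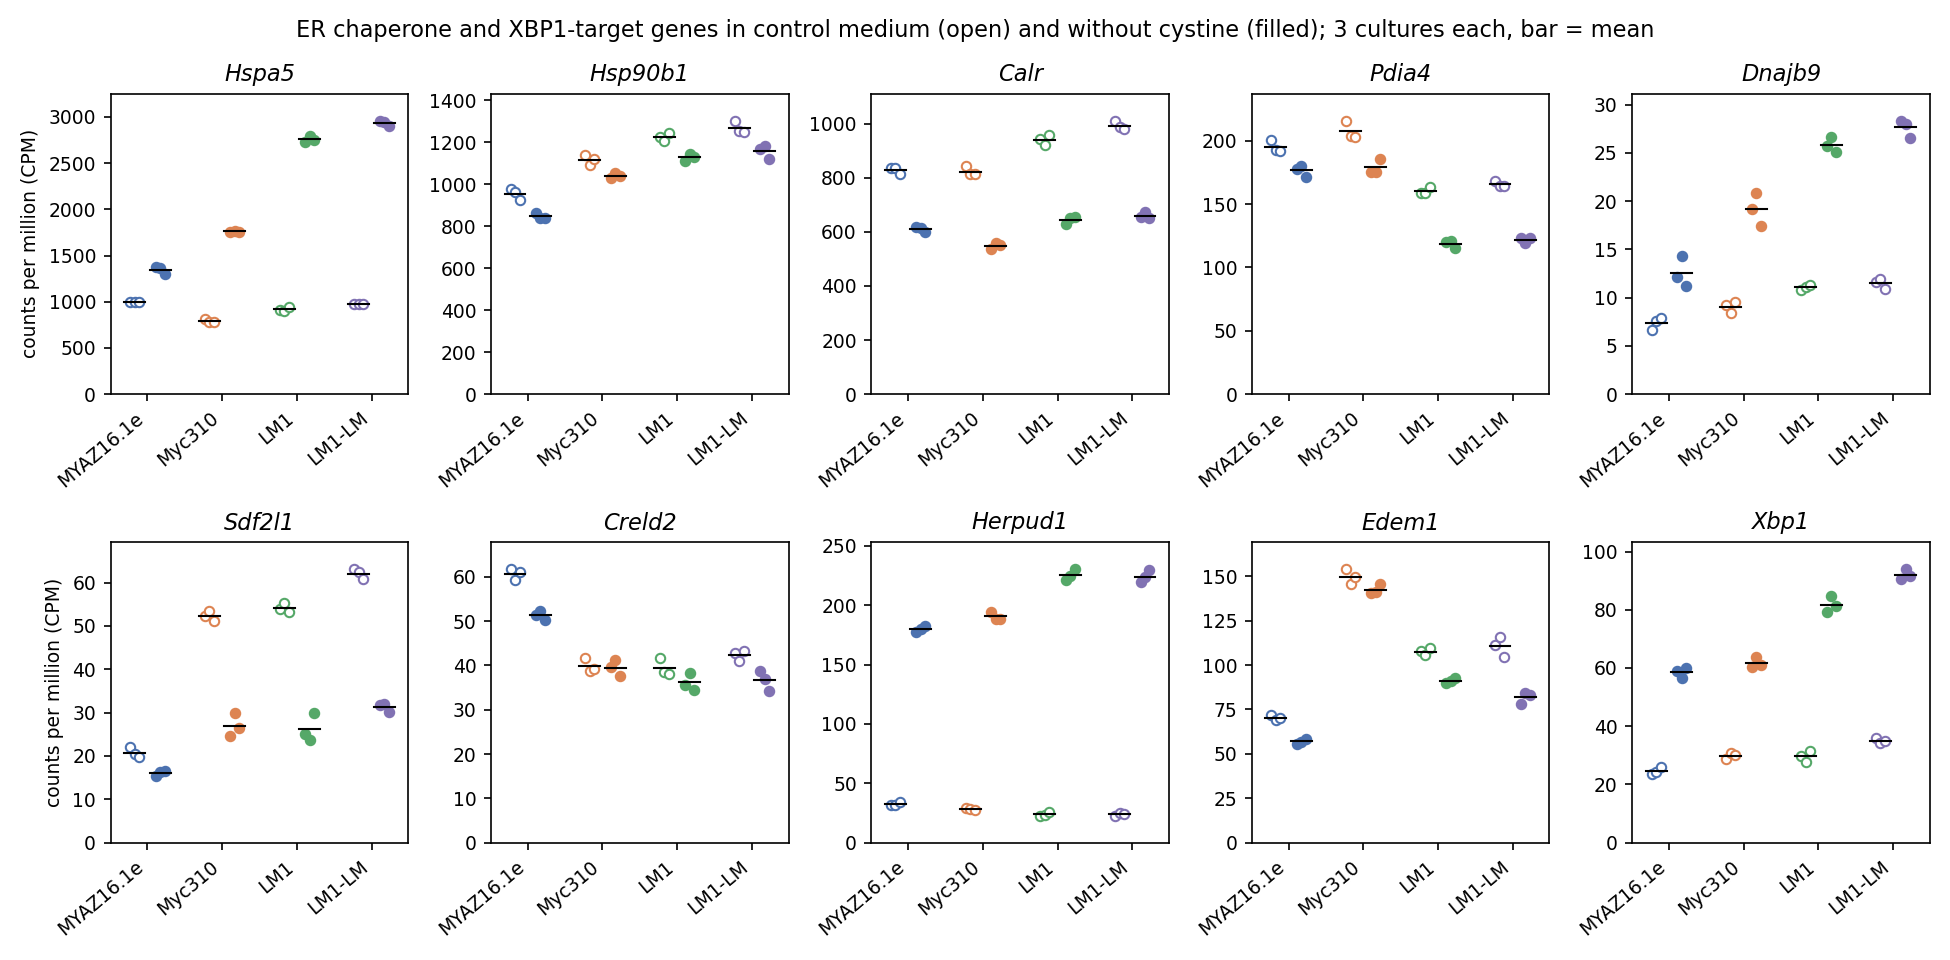
CPM of the 10 genes in control medium (open points) and without cystine (filled points) in the 4 deprived lines. Each panel is 1 gene with its own linear axis from 0, each point a culture and each bar the mean of 3. Filled points lie above the open ones in every line for Hspa5, Dnajb9, Herpud1 and Xbp1, and below them in every line for Calr, Sdf2l1, Pdia4, Hsp90b1 and Edem1.

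Herpud1 (ENSMUSG00000031770, chr8:94386438-94395377, plus strand) rose most. In MYAZ16.1e its 3 control cultures had 31.5, 32.0 and 34.5 CPM and its deprived cultures 177, 179.8 and 182 CPM. In LM1 it went from 22.4, 23.4 and 25.4 to 221, 224 and 230.2 CPM. The groups lay far apart and the cultures of a group close together. The rise was 5.46-fold in MYAZ16.1e (log2 2.45, SE 0.038, adjusted p = 8.87e-30) and 9.71-fold in LM1 (log2 3.28, SE 0.040, adjusted p = 5.96e-33). Myc310 went from 29.2, 28.1 and 27.4 to 194, 189 and 188 CPM, a 6.68-fold rise, and LM1-LM from 22.8, 25.0 and 24.5 to 219, 223 and 229 CPM, a 9.54-fold rise. Among the 13400 genes ordered by log2 change, Herpud1 stood at places 136, 173, 160 and 158 from the top, in the order MYAZ16.1e, Myc310, LM1, LM1-LM. Of the 4 lines MYAZ16.1e was the highest in control medium and the lowest without cystine.

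Hspa5 (ENSMUSG00000026864, chr2:34771970-34777547, plus strand) rose in all 4 lines and least in MYAZ16.1e. Its control cultures held 1002, 995 and 993 CPM in MYAZ16.1e and 909, 904 and 939.8 CPM in LM1. Without cystine the values were 1371, 1365 and 1304 CPM in MYAZ16.1e and 2728, 2795 and 2751 CPM in LM1. Every deprived culture of either line was above every control culture, and all deprived LM1 cultures were above the deprived MYAZ16.1e ones. The change was 1.35-fold in MYAZ16.1e (log2 0.43, SE 0.021, adjusted p = 6.10e-17) and 3.08-fold in LM1 (log2 1.62, SE 0.021, adjusted p = 4.25e-32). Myc310 stood between them, with 812, 776 and 785 CPM in control medium and 1755, 1770.1 and 1756 CPM without cystine, a 2.21-fold rise. LM1-LM went from 979, 977 and 978 to 2958, 2945 and 2902 CPM, a 3.08-fold rise.

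Dnajb9 (ENSMUSG00000014905, chr12:44205559-44210326, minus strand) was the least abundant of the 10 and rose in every line. MYAZ16.1e cultures went from 6.66, 7.61 and 7.88 to 12.1, 14.3 and 11.2 CPM and LM1-LM cultures from 11.6, 11.9 and 10.9 to 28.3, 28.0 and 26.6 CPM. The groups did not overlap, although the deprived MYAZ16.1e cultures differed among themselves by more than the control ones. These were rises of 1.68-fold (log2 0.75, SE 0.090, adjusted p = 3.06e-08) and 2.47-fold (log2 1.30, SE 0.078, adjusted p = 1.55e-15). In Myc310 and LM1 the rises were 2.09-fold and 2.38-fold. At this level, with 128 to 741 counts per library over all 45, the standard errors were 0.078 to 0.090, against 0.021 for Hspa5.

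Xbp1 (ENSMUSG00000020484, chr11:5520659-5525893, plus strand) rose in all 4 lines, counted over both of its splice forms. Its values went from 23.7, 24.3 and 25.9 to 59.0, 56.4 and 60.0 CPM in MYAZ16.1e. In Myc310 they went from between 28.7 and 30.7 to 60.3, 63.8 and 61.1 CPM. Deprived and control cultures were well separated in both lines. The rise was 2.36-fold in MYAZ16.1e (log2 1.24, SE 0.048, adjusted p = 2.44e-19) and 2.05-fold in Myc310 (log2 1.04, SE 0.047, adjusted p = 2.94e-18). LM1 went from 29.9, 27.6 and 31.5 to 79.1, 84.7 and 81.3 CPM (2.82-fold) and LM1-LM from 36.1, 34.2 and 34.9 to 90.6, 93.9 and 91.5 CPM (2.69-fold).

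Sdf2l1 (ENSMUSG00000022769, chr16:17130138-17132383, minus strand) fell most in Myc310, LM1 and LM1-LM, while in MYAZ16.1e Calr fell more. MYAZ16.1e, where it was lowest in control medium, went from 22.0, 20.4 and 19.7 to 15.3, 16.3 and 16.6 CPM. LM1 went from 53.8, 55.3 and 53.2 to 25.0, 23.6 and 29.8 CPM. The deprived cultures were below all control cultures in both lines. The fall was 1.29-fold in MYAZ16.1e (log2 -0.37, SE 0.075, adjusted p = 1.23e-04) and 2.02-fold in LM1 (log2 -1.01, SE 0.063, adjusted p = 4.27e-15). Myc310 went from 52.3, 53.4 and 51.1 to 24.7, 29.9 and 26.4 CPM (1.95-fold lower) and LM1-LM from 63.1, 62.4 and 60.7 to 31.6, 32.0 and 30.2 CPM (1.93-fold lower).

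Calr (ENSMUSG00000003814, chr8:84841850-84846934, minus strand) fell in every line. Control cultures of Myc310 had 842, 814 and 813 CPM and deprived ones 537, 558 and 552 CPM. In MYAZ16.1e the values went from 837, 835 and 815 to 617, 614 and 599.8 CPM. No deprived culture reached the lowest control culture of its line. The log2 change was -0.45 in MYAZ16.1e (SE 0.023, adjusted p = 2.54e-16) and -0.60 in Myc310 (SE 0.023, adjusted p = 7.00e-20). LM1 and LM1-LM gave -0.51 and -0.55. Calr and Hspa5 both carry an ERSE, shown above, and moved in opposite directions.

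Pdia4 (ENSMUSG00000025823, chr6:47796141-47813430, minus strand) fell from 158, 158 and 163 to 119.9, 121 and 115 CPM in LM1. In MYAZ16.1e it went from 201, 192 and 192 to 178, 180.0 and 172 CPM. The groups did not overlap, and the gap was wider in LM1. The falls were 1.31-fold (log2 -0.39, SE 0.031, adjusted p = 1.09e-12) and 1.11-fold (log2 -0.15, SE 0.029, adjusted p = 7.53e-05). In Myc310 and LM1-LM the log2 changes were -0.23 and -0.40. Edem1 (ENSMUSG00000030104, chr6:108828641-108859356, plus strand) fell from 111, 116 and 104 to 78.2, 84.3 and 83.1 CPM in LM1-LM (log2 -0.40, SE 0.036, adjusted p = 2.12e-11). In Myc310 it fell from 154, 146 and 149.7 to 141, 141 and 145 CPM (log2 -0.09, SE 0.033, adjusted p = 0.0249). The Myc310 groups stood next to each other without overlap, and the call was lost without replicate 1 of each group (adjusted p = 0.251). MYAZ16.1e and LM1 gave -0.31 and -0.20.

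Hsp90b1 (ENSMUSG00000020048, chr10:86690209-86705509, minus strand) fell by a small amount in all 4 lines. It went from 977, 965 and 925 to 862, 838 and 841 CPM in MYAZ16.1e and from 1226, 1208 and 1245 to 1111, 1144 and 1128 CPM in LM1. The deprived cultures lay just under the control ones. The log2 changes were -0.18 (SE 0.024, adjusted p = 2.99e-07) and -0.09 (SE 0.024, adjusted p = 0.00248), with -0.11 in Myc310 and -0.09 in LM1-LM. The pseudogene 1810014B01Rik overlaps exons of Hsp90b1 on the other strand and had at most 118 counts in any library, against at least 17725 for Hsp90b1. Creld2 (ENSMUSG00000023272, chr15:88819646-88826683, plus strand) fell from 61.7, 59.3 and 61.1 to 51.4, 52.3 and 50.3 CPM in MYAZ16.1e (log2 -0.25, SE 0.047, adjusted p = 4.62e-05). In Myc310 the values were 41.7, 38.7 and 39.1 CPM in control medium and 39.6, 41.3 and 37.7 CPM without cystine, which overlapped (log2 -0.03, adjusted p = 0.67). LM1 also overlapped (log2 -0.09, adjusted p = 0.133), a result that passed the threshold with upper-quartile scaling (adjusted p = 0.00622) or without replicate 2 (adjusted p = 0.0423), while the LM1-LM call (log2 -0.17, adjusted p = 0.00375) was lost without replicate 3 (adjusted p = 0.114).

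Apart from Creld2 in Myc310 and LM1, deprived and control cultures did not overlap for any of the 10 genes in any of the 4 lines. The background of such separation was 58.9%, 69.4%, 73.4% and 74% of tested genes, in the order MYAZ16.1e, Myc310, LM1, LM1-LM. Together the 10 genes held 0.325% of all counts in MYAZ16.1e control cultures and 0.345% in deprived ones, and 0.348% and 0.481% in LM1.

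**Figure D3:**
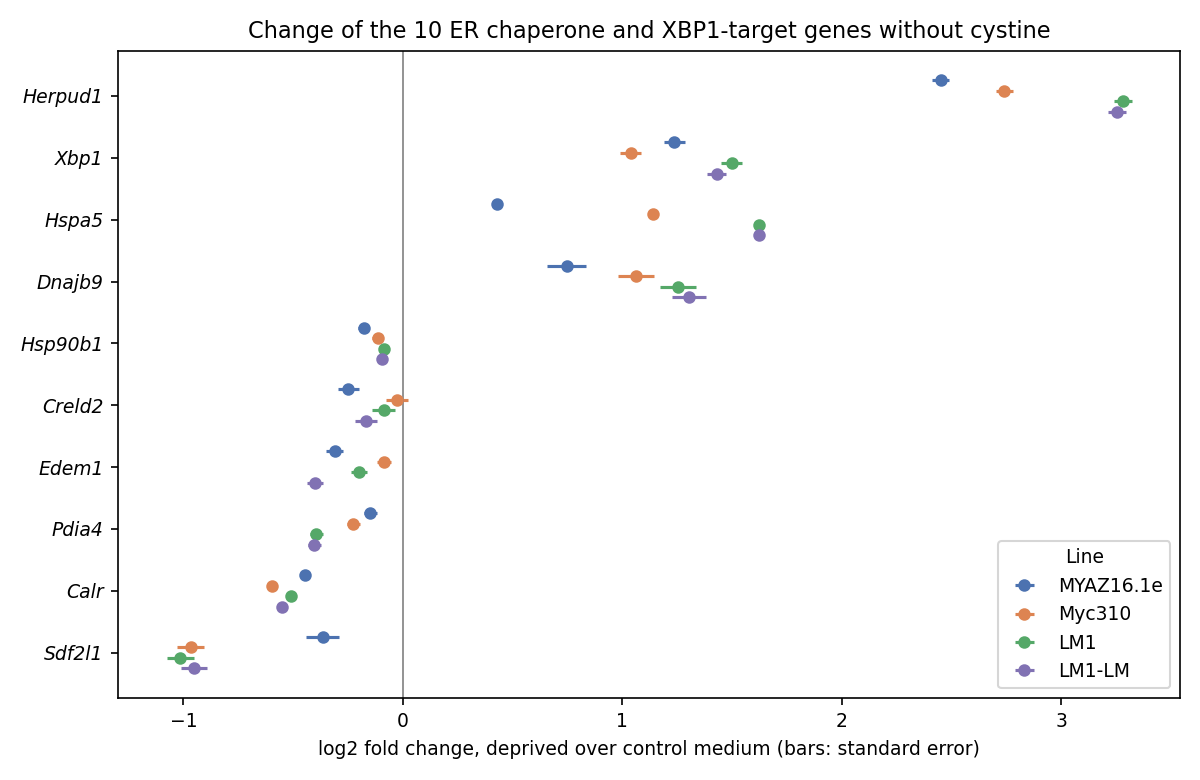
Log2 fold change of each of the 10 genes without cystine against control medium, with 1 point a line and bars for the standard error derived from the edgeR test. Genes are ordered by their mean change. 4 genes lie to the right of 0 in every line, from 0.43 (Hspa5 in MYAZ16.1e) to 3.28 (Herpud1 in LM1), and Sdf2l1 and Calr lie farthest to the left.

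The size of the response differed between lines. The differences were tested as interaction terms against MYAZ16.1e, whose libraries the 3 tests share. In Myc310 5 of the 10 responded more positively and 3 more negatively than in MYAZ16.1e (40.3% of tested genes differed, 19.8% upward and 20.4% downward). LM1 had 5 and 2 (52.2%, of which 26.9% and 25.3%), and LM1-LM 5 and 3 (54.8%, of which 28.4% and 26.4%). Leaving out 1 replicate number at a time gave 3 to 4 members upward in Myc310, 3 to 6 in LM1 and 3 to 4 in LM1-LM, with 3 in each without replicate 2. For Hspa5 the log2 response was larger by 0.71 in Myc310 (SE 0.030, adjusted p = 2.03e-17) and by 1.19 in LM1 (SE 0.030, adjusted p = 2.11e-23). LM1-LM gave 1.19 (SE 0.030, adjusted p = 1.44e-23). Herpud1 responded more than in MYAZ16.1e by 0.29, 0.83 and 0.80 in Myc310, LM1 and LM1-LM (largest adjusted p = 8.90e-05). Dnajb9 did so by 0.32, 0.51 and 0.56, where the Myc310 value passed narrowly (adjusted p = 0.041) and was lost with DESeq2 (adjusted p = 0.0573), without the filter, with upper-quartile scaling, with only the lines compared, and without each of the 3 replicates.

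Sdf2l1 fell further than in MYAZ16.1e by a like amount in the other 3 lines, with a difference of -0.60 in Myc310 (SE 0.098, adjusted p = 9.46e-06). LM1 had -0.65 and LM1-LM -0.59. It also started from a lower control level in MYAZ16.1e, 20.7 CPM against 52.2 to 62.1 CPM. Pdia4 fell further in LM1 (difference -0.25, adjusted p = 1.31e-05) and LM1-LM (-0.26, adjusted p = 5.80e-06). Among the differences past the threshold, those of Xbp1 alone pointed both ways, with -0.20 for Myc310, 0.26 for LM1 and 0.19 for LM1-LM (adjusted p = 0.0197, 0.00173 and 0.015). The Xbp1 difference was lost in Myc310 without replicate 1 or 3, in LM1 without replicate 2, and in LM1-LM without replicate 2 or 3 or with upper-quartile scaling (adjusted p = 0.180). The Hsp90b1 differences past the threshold, in LM1 and LM1-LM, were lost under 4 and 7 alternatives. The Calr difference in LM1-LM was lost without replicate 1 (adjusted p = 0.0529) and that of Creld2 in Myc310 without replicate 2 (adjusted p = 0.0870). Some differences that were not called passed under part of the 10 alternatives. These were Calr in LM1 under 4, Creld2 in LM1 and Pdia4 in Myc310 under 2 each, and Edem1 in LM1-LM under 1. The differences of Hsp90b1 and Calr were at most 0.15 on the log2 scale in either direction.

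The sensors themselves rose in part. Of 9 tested genes on a list of ER stress sensors and their processing factors, 4 rose in all 4 lines and none fell in all 4 (19.3% and 19% of all tested genes did). Ern1, which encodes IRE1, went from 27.3 to 75.6 CPM in MYAZ16.1e (log2 1.47) and from 24.1 to 147 CPM in LM1-LM (log2 2.64). Atf6 rose by 0.75 in MYAZ16.1e and by 1.43 to 1.54 in the other 3 lines. Eif2ak3, which encodes PERK, rose in LM1 (0.46) and LM1-LM (0.61), and had log2 changes of 0.04 in MYAZ16.1e (adjusted p = 0.65) and -0.08 in Myc310 (adjusted p = 0.231). The membrane-bound factors Creb3l2 and Creb3 were the other 2 that rose throughout. Mbtps1 and Mbtps2, the proteases that cut ATF6, had log2 changes between -0.22 and 0.01, and Atf6b, a relative of Atf6, between -0.08 and 0.22.

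The other ER folding and secretory genes were split. Of 35 tested, 20 were called lower and 6 higher in MYAZ16.1e (27.1% and 26.6% of all tested genes) and 16 and 14 in LM1-LM (35.9% and 36.5%). Of the same 35, 16 fell and 6 rose in all 4 lines (45.7% and 17.1%, against 19% and 19.3% of all genes), and the median log2 change lay between -0.17 and -0.09. The foldase Fkbp11 fell most, by log2 values from -0.63 in MYAZ16.1e to -1.42 in LM1-LM. The thioredoxin-domain genes Txndc5 (-0.48 to -0.92) and Txndc11 (-0.38 to -0.69) followed. Ero1a, which encodes the oxidase that supplies disulphide bonds, rose most. It went from 87.0 to 225 CPM in MYAZ16.1e (log2 1.36), and LM1 had 168 CPM in control medium and 732 CPM without cystine (log2 2.16). Sec23b, a coat component of vesicles leaving the ER, rose by 0.11 to 0.84, and Cnpy2 by 0.36 to 0.66.

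Of 18 tested ERAD genes, 7 rose and 2 fell in all 4 lines (38.9% and 11.1%, against 19.3% and 19% of all tested genes), and the median log2 change was 0.07, 0.34, 0.48 and 0.53, in the order MYAZ16.1e, Myc310, LM1, LM1-LM. Sel1l, the partner of the ERAD ubiquitin ligase, rose by 0.61 in MYAZ16.1e and by 1.02 in Myc310. Herpud2, the relative of Herpud1, rose by 0.64 to 1.09. Ube2g2, an ERAD ubiquitin-conjugating enzyme, rose by 0.86 in Myc310 and by 1.42 in LM1-LM, and had a log2 change of 0.06 in MYAZ16.1e (adjusted p = 0.167). The segregase gene Vcp (-0.53 to -0.24) and its cofactor Nploc4 (-0.44 to -0.16) fell, and Edem2, a relative of Edem1, was called in no line (largest change -0.10 in LM1).

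Of 5 tested genes known as substrates of IRE1-dependent mRNA decay, none was called higher in any line, and 1, 3, 5 and 5 were called lower, in the order MYAZ16.1e, Myc310, LM1, LM1-LM (27.1%, 33.9%, 35.3% and 35.9% of all tested genes were lower). Bloc1s1, the substrate most often used to follow this decay, had log2 changes of -0.04 (adjusted p = 0.621), -0.16 (adjusted p = 0.0327), -0.31 (adjusted p = 1.72e-04) and -0.36 (adjusted p = 3.21e-05) in the same order. Hgsnat had -0.03 in MYAZ16.1e and -0.58 in LM1-LM, and Col6a1 -0.14 and -0.61. Sparc fell in all 4 lines, most in MYAZ16.1e (-0.23) and least in LM1-LM (-0.10). Pdgfrb, the remaining tested gene, averaged below 1 CPM in each of these 8 groups, and Scara3 did not pass the filter on low counts.

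Of 32 tested genes of the ATF4 arm, 31 rose in all 4 lines (19.3% of all tested genes did) and Stc2 was not called in LM1-LM, with medians of 1.83, 2.20, 2.46 and 2.49 on the log2 scale in the same order. With genes at 0 in all control cultures of a line set to the bound that 3 counts over the group allow, or left out where the deprived group was under it too (1 gene, in LM1-LM), the LM1-LM median was 2.47 and those of the other 3 lines were the same. Atf4 rose by 1.65, 2.16, 2.52 and 2.61. Ddit3, which encodes the proapoptotic factor CHOP, went from 2.00 to 59.0 CPM in LM1 (log2 4.91), and MYAZ16.1e had 3.65 CPM in control medium and 42.9 CPM without cystine (log2 3.53). Chac1 rose by 5.81 to 6.41 and Atf3 by 4.37 to 9.62. Control means of Atf3 were 1.58 CPM in MYAZ16.1e and 0.474, 0.329 and 0.220 CPM in Myc310, LM1 and LM1-LM, so its larger values rest on low control levels. Vldlr went from 2.98 to 59.9 CPM in MYAZ16.1e (log2 4.34) and had 14.1 CPM in control and 93.7 CPM in deprived Myc310 cultures (log2 2.72). In LM1 and LM1-LM its control means were 0.0657 and 0 CPM, and no fold is given there. The serine-pathway genes Phgdh, Psat1 and Shmt2 had smaller changes (lowest value 0.55, highest 1.52), and in LM1 and LM1-LM all 3 were below Hspa5. Herpud1, with 2.45 to 3.28, lay within the range of this list, while Hspa5, Dnajb9 and Xbp1 were below its median in each line.

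A list of 12 heat shock genes held 10 cytosolic ones, which answer unfolded protein outside the ER, and the mitochondrial chaperonin genes Hspd1 and Hspe1. Of the 12, 9 fell and none rose in all 4 lines (19% and 19.3% of all tested genes did), Hspd1 and Hspe1 among those that fell, with medians from -0.59 to -0.46. Hspa8, the constitutive HSP70, went from 2455 to 1137 CPM in MYAZ16.1e (log2 -1.12), and the inducible Hspa1a and Hspa1b, near-identical copies whose reads may be split unevenly, had log2 changes of -2.23 to -1.16 and -1.99 to -1.10. Hspb1 fell in MYAZ16.1e (-0.39) and rose in LM1 (1.05) and LM1-LM (1.04). Bag3 and Dnajb1 also fell in MYAZ16.1e (-0.30 and -0.56) and rose by up to 0.21 in LM1-LM.

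**Figure D4:**
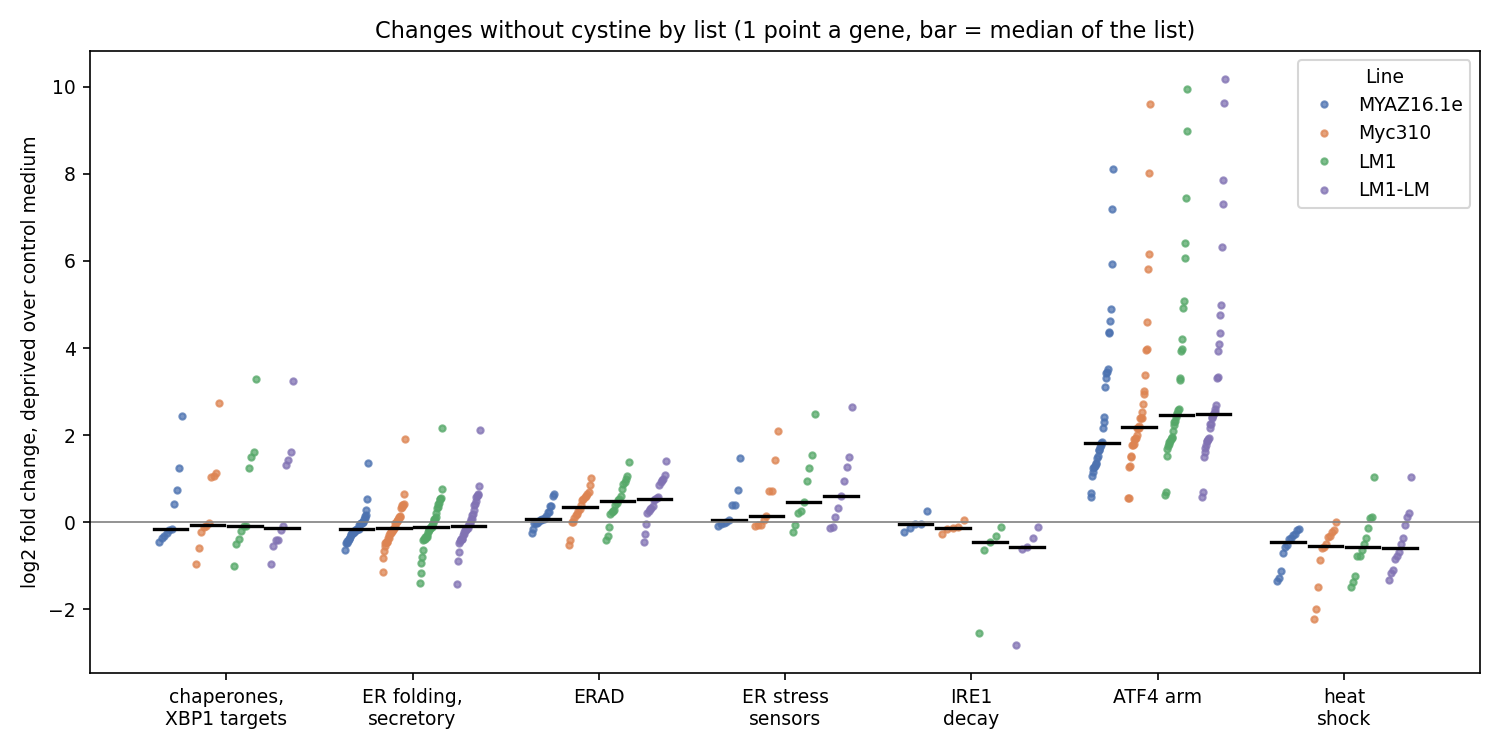
Log2 fold change without cystine of every tested gene of 7 lists, coloured by line, with a black bar at each list's median. The ATF4 arm lies highest with medians from 1.83 to 2.49, the medians of ERAD and sensor genes lie between 0.04 and 0.61, those of ER folding genes between -0.17 and -0.09, and those of heat shock genes between -0.59 and -0.46.

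Over the 15 groups, the genes whose mean log2 CPM followed Herpud1 most closely were Atf4 (Pearson r = 0.989), Tars (0.986), Aars (0.984), Mtbp (0.982) and Nars (0.982), out of the 9091 genes compared. Tars, Aars and Nars encode cytosolic aminoacyl-tRNA synthetases, and Atf4, Tars and Aars are on the ATF4 arm list. For Hspa5 they were Abl2 (0.987), Coq10b (0.985), Scyl2 (0.985), Rbm42 (0.983) and Cep170 (0.982), none of which is on the lists used here. Hspa5 itself correlated at 0.893 with Herpud1, 0.904 with Dnajb9, 0.854 with Xbp1 and -0.691 with Calr. These values describe group means in which the 4 deprived groups set most of the spread, and over the 10 lines in control medium alone Hspa5 correlated at 0.255 with Herpud1, -0.117 with Dnajb9, 0.529 with Xbp1 and 0.594 with Calr.

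In control medium the lines were compared by subtype, to see how the 10 genes stood before deprivation. Edem1, Sdf2l1 and Dnajb9 were higher at library level in Myc310 and in the LM and LM-LM lines than in the MYAZ lines. The Dnajb9 call in Myc310 passed narrowly (log2 0.27, adjusted p = 0.0454), with overlapping cultures, and was lost under 11 of 14 alternatives. By library-level fits, 3 of the 10 were higher and 3 lower in Myc310 (50.9% of 13795 tested genes were called, 23.8% higher and 27.1% lower). LM had 4 higher and 0 lower (60.8%, of which 30.3% and 30.5%), and LM-LM 5 and 1 (62.8%, of which 30.5% and 32.3%). These fits treat cultures of 1 line as replicates of the subtype. With counts summed per line, Myc310 had 1 higher (8.92% of 16017 genes called), LM 2 higher (23.6%), LM-LM 2 higher (26.4%), and none was lower in any of the 3. Myc310 then rests on 1 sum whose spread is taken from the other subtypes.

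Edem1 averaged 70.4 ± 1.61 CPM in MYAZ16.1e, 64.0 ± 4.04 in MYAZ12.3i and 63.5 ± 2.04 in MYAZ6.6g (SD, n = 3 cultures). The Myc310 mean was 149.8 ± 4.07 CPM, and the LM and LM-LM line means ran from 108 CPM in LM1 to 164 CPM in LM3-LM. All cultures of these 7 lines were above all MYAZ cultures, as Sdf2l1 was too. Such separation in either direction was seen for 44.8% of tested genes in Myc310, while LM had 27.5% and LM-LM 27%. Against MYAZ the summed counts gave log2 differences of 1.20 for Myc310 (SE 0.23, adjusted p = 0.0179), 1.02 for LM (SE 0.18, adjusted p = 0.00474) and 1.06 for LM-LM (SE 0.18, adjusted p = 0.00367). Line means did not overlap between MYAZ and LM or LM-LM (nor did those of 43.5% and 43.6% of tested genes), and an exact two-sided permutation test of 3 lines against 3 gave p = 0.1 for both, the smallest it can give. Sdf2l1 and Dnajb9 in both subtypes and Calr in LM-LM gave the same p.

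Sdf2l1 had means of 20.7, 37.1 and 41.4 CPM in MYAZ16.1e, MYAZ12.3i and MYAZ6.6g. The mean of the LM line means was 55.7 ± 2.96 CPM and that of LM-LM 62.7 ± 2.81 CPM (SD, n = 3 lines), against 33.1 ± 10.9 CPM for MYAZ. All LM and LM-LM cultures were above all MYAZ cultures, and MYAZ16.1e was the lowest line. The summed counts gave 0.77 for LM (SE 0.22, adjusted p = 0.0348), 0.93 for LM-LM (SE 0.22, adjusted p = 0.0161) and 0.68 for Myc310, which missed the threshold (adjusted p = 0.191). Both Edem1 and Sdf2l1 were among the genes that fell without cystine.

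Dnajb9 was higher in LM than in MYAZ at library level (log2 0.43, adjusted p = 4.28e-05), with line means of 10.1 ± 0.981 CPM against 7.48 ± 0.46 CPM, and missed the threshold with summed counts (adjusted p = 0.0758). Herpud1 was lower in Myc310 (log2 -0.54, adjusted p = 0.0232) and in LM-LM (-0.38, adjusted p = 0.0149), and neither call remained with summed counts (adjusted p = 0.408 and 0.33). Its lowest lines were LM1 (23.7 CPM) and LM1-LM (24.1 CPM), while LM3 had 41.5 CPM, within the MYAZ range of 32.6 to 46.0 CPM. Hspa5 was lowest in Myc310, at 791 ± 18.9 CPM, and highest in LM2-LM, at 1106 ± 20.0 CPM, which is 1.40 times as much. Its Myc310 cultures were below all MYAZ cultures (log2 -0.31, adjusted p = 1.06e-05 at library level and 0.154 with summed counts). Calr, Hsp90b1 and Creld2 had calls at library level in at least 1 subtype, the largest being -0.50 for Creld2 in Myc310, and none of these remained with summed counts (lowest adjusted p = 0.125).

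Some lines stood apart within a subtype. Xbp1 ran from 24.6 ± 1.11 CPM in MYAZ16.1e to 52.1 ± 1.57 CPM in LM2-LM, and MYAZ16.1e was below both other MYAZ lines (45.8 and 44.4 CPM). Pdia4 was 160.0 CPM in LM1 and 166 in LM1-LM but 264 in LM2 and 291 in LM3-LM. Among the LM and LM-LM lines Creld2 was lowest in the same 2, with 39.4 CPM in LM1 and 42.4 in LM1-LM, and had 66.8 in LM3 and 69.4 in LM3-LM. Myc310, from which these lines descend, had 39.8 CPM. Of the 9 neighbouring pairs in the order of the 10 line means, the culture ranges overlapped in 4 for Hspa5, Hsp90b1, Pdia4 and Edem1, 5 for Sdf2l1 and Xbp1, 6 for Calr and Creld2, 7 for Dnajb9 and 2 for Herpud1, so neighbours in these orders often did not differ beyond their spread.

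**Figure D5:**
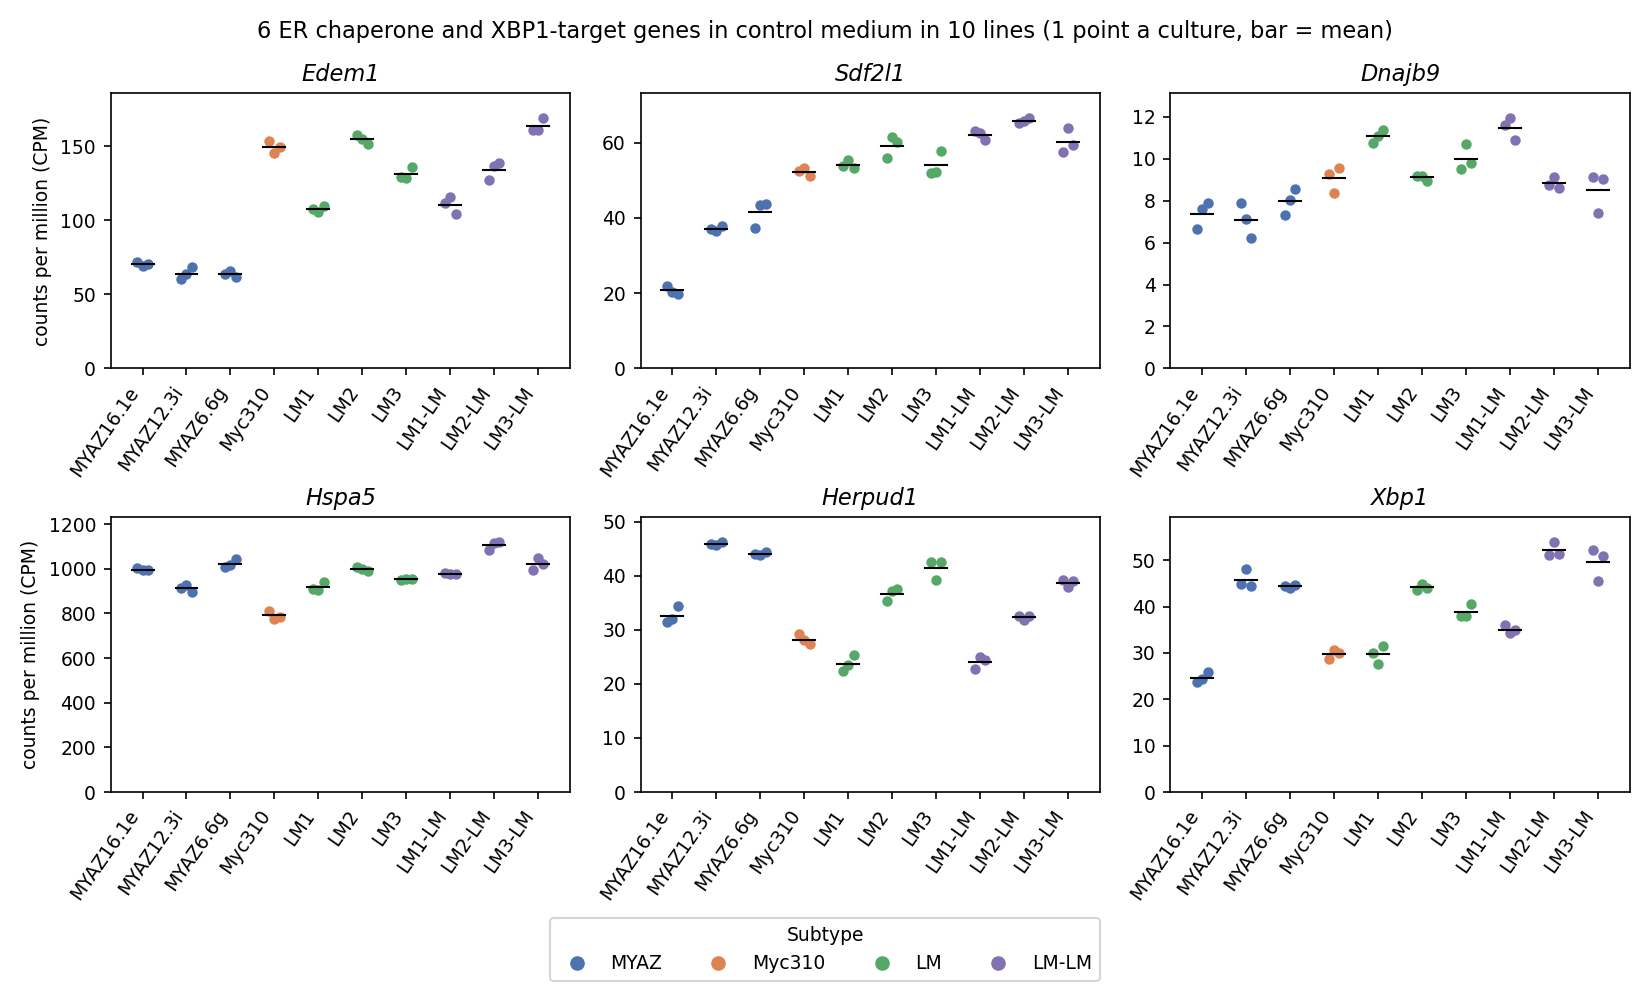
CPM of Edem1, Sdf2l1, Dnajb9, Hspa5, Herpud1 and Xbp1 in control medium in the 10 lines, coloured by subtype. Each point is a culture, each bar the mean of 3, and each axis is linear from 0. Edem1 and Sdf2l1 are lowest in the 3 MYAZ lines, Hspa5 is lowest in Myc310, and Herpud1 is lowest in LM1 and LM1-LM.

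MYAZ12.3i NDI1 differed little from MYAZ12.3i in the 10 genes. Hspa5, Pdia4 and Creld2 were higher and none was lower (17.4% of 12841 tested genes were called, 8.14% higher and 9.27% lower). The number of genes called, 2236, became 1475, 1480 and 1243 without MYAZ12.3i replicate 1, 2 and 3. Creld2 had 58.4, 61.4 and 56.5 CPM in the NDI1 cultures and 47.0, 51.4 and 47.0 CPM in those of MYAZ12.3i, without overlap, as for 34.7% of tested genes (log2 0.27, SE 0.048, adjusted p = 0.00122). Hspa5 had 1041, 1026 and 998 CPM against 914, 929 and 898 CPM (log2 0.16, SE 0.027, adjusted p = 0.00128), and Pdia4 a log2 difference of 0.18 (SE 0.030, adjusted p = 0.00106). Herpud1 just missed the threshold (log2 0.12, adjusted p = 0.0515), and passed it when at least 10 counts in every library were required (adjusted p = 0.0485). The other 6 had log2 differences between -0.17 (Dnajb9) and 0.09 (Edem1), none of them called, although Calr passed with no filter beyond 1 count (adjusted p = 0.0491) and without NDI1 replicate 3 (adjusted p = 0.0110). The pair is 1 line against another, so what its name denotes and other differences between the lines cannot be told apart.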

How the data were processed

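Polyadenylated RNA was made into strand-directional libraries and sequenced as paired 100-base reads (NovaSeq). The deposited values are whole-number gene counts that the authors made with STAR and RSEM on GRCm38, per the labels (with R 4.2.2 and DESeq2 1.38.3), with no normalization. Each group held 3 cultures. Groups, 15 in all, were taken from the labels. Total counts per library ranged from 19517859 to 29019988.

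Counts were scaled by TMM and tested with edgeR 4.0.16 (quasi-likelihood, filterByExpr, threshold 0.05 after Benjamini-Hochberg adjustment, R 4.3.3). Standard errors (SE) were derived from this test, as the absolute log2 fold change divided by the square root of the F statistic. The deprivation fit held 24 libraries in 8 groups and gave the differences of response as interaction terms, the subtype fit 30 control libraries, and the NDI1 fit 6. Alternatives were other scalings and filters, DESeq2 1.42.0, voom (limma 3.58.1) with line as random effect, counts summed per line, a replicate block, and leaving out replicates or lines. The fits were tested on simulated data. Members and lists were chosen with earlier results of these data known. Named genes were all 10 members, Atf4, Ddit3, Ern1, Atf6 and Eif2ak3, the 3 genes of each list with the highest and the 3 with the lowest mean deprivation change at an average log2 CPM of at least 3, and the 5 genes most correlated with Hspa5 or Herpud1. Creb3, Stc2, Scara3, Hspd1, Hspe1, the cell type markers, 1810014B01Rik and Pdgfrb were named after their values were seen. Gene positions are from GENCODE M21 (GRCm38) and promoters from RefSeq.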

Additional observations from a re-analysis of the deposited data

Results flagged for a closer look

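The deprivation response of 7 or 8 of the 10 genes differed from that of MYAZ16.1e in each of the other lines by the interaction test (40.3% of all tested genes did in Myc310, 52.2% in LM1, and LM1-LM had 54.8%), and these differences (log2, the other line minus MYAZ16.1e) are listed here because they set the lines apart under the same change of medium. In LM1 they were 1.19 for Hspa5, 0.093 for Hsp90b1, -0.25 for Pdia4, 0.51 for Dnajb9, -0.65 for Sdf2l1, 0.83 for Herpud1 and 0.26 for Xbp1. In LM1-LM they were 1.19 for Hspa5, 0.085 for Hsp90b1, -0.10 for Calr, -0.26 for Pdia4, 0.56 for Dnajb9, -0.59 for Sdf2l1, 0.80 for Herpud1 and 0.19 for Xbp1. In Myc310 they were 0.71 for Hspa5, -0.15 for Calr, 0.32 for Dnajb9, -0.60 for Sdf2l1, 0.22 for Creld2, 0.29 for Herpud1, 0.22 for Edem1 and -0.20 for Xbp1. All 3 comparisons share the MYAZ16.1e libraries, so a deviation of those 6 cultures enters each of them.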

How the results depend on the processing

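For the deprivation comparisons, 395 member results under an alternative kept their direction and call, 2 lost it, 2 gained one, and Creld2 in Myc310 changed sign (range without 1 replicate -0.079 to 0.0070). Upper-quartile scaling turned the LM1-LM differences of Hsp90b1 and Creld2 to -0.000666 and -0.00633, left 3 members higher there, and lowered the share of higher calls among all genes to 41.0% in LM1 (51.5% with TMM) and to 41.6% in LM1-LM (51.7% with TMM). Leaving out 1 replicate gave 3 to 4 members higher for the difference in Myc310, 3 to 6 in LM1 and 3 to 4 in LM1-LM, with replicate 2 responsible for each lowest count, and 1243 to 2209 genes called for NDI1, fewest without MYAZ12.3i replicate 3.

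Subtype results in control medium moved most. Counts summed per line gave 1429 genes called for Myc310, 3788 for LM and 4226 for LM-LM, with 1, 2 and 2 members higher and 0 lower in Myc310 and LM-LM, and limma-voom with line as random effect gave 2819, 4759 and 5054 genes, 1 member lower in Myc310 and Xbp1 at 0.00356 in LM. Leaving out 1 line or Myc310 culture gave 1 to 4 members lower in Myc310 (1 without MYAZ6.6g or any 1 Myc310 culture), 0 to 2 lower in LM (2 without MYAZ16.1e, 1 without LM3), and 4 to 8 higher and 0 to 1 lower in LM-LM (8 higher without LM1-LM, 0 lower without LM1-LM, MYAZ12.3i or MYAZ6.6g). Signs changed in these ranges for Calr in Myc310 (-0.14 to 0.041), for Hspa5 (-0.075 to 0.012), Hsp90b1 (-0.051 to 0.21), Creld2 (-0.19 to 0.17) and Xbp1 (-0.26 to 0.13) in LM, and for Pdia4 (-0.047 to 0.39), Creld2 (-0.26 to 0.12) and Xbp1 (-0.00301 to 0.39) in LM-LM. The cause of these changes was not tested. Same-numbered cultures did not deviate together in every line (correlations -0.39 to 0.30). This cannot show whether they were handled together, and the main fits treat them as unpaired. The replicate block changed 2 member calls, Creld2 in the LM1 difference (adjusted p = 0.0457) and Dnajb9 in Myc310 (0.0563).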
